A study of Rattus norvegicus with 8 samples.

Results

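The subject is a set of 10 genes of corticosteroid signalling in medial prefrontal cortex of rats that differ in motor impulsivity. The genes were chosen by name, with earlier results of these data known. They are the corticosteroid receptor genes Nr3c1 and Nr3c2 and the glucocorticoid-responsive genes Fkbp5, Sgk1, Tsc22d3, Zbtb16, Klf9, Pdk4, Ddit4 and Errfi1. All 10 were found by symbol among the 17168 genes listed for each library, and all 10 passed the filter on low counts that left 11631 genes for testing. RNA was sequenced from cortex homogenate of male Sprague-Dawley rats with high motor impulsivity (HI, 4 libraries) and low motor impulsivity (LI, 4 libraries). The labels assign a rat to HI when its premature responses in a serial reaction time task lie in the top quartile, and to LI when they lie in the bottom quartile. No drug, stressor or transgene is named for either group, and the labels give no age, corticosterone level, or time of day of tissue collection. The labels do not state that each library is a separate animal, so p-values measure the spread between these libraries.

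Corticosterone, the main glucocorticoid of the rat, enters cells and binds 2 related nuclear receptors. The glucocorticoid receptor, encoded by Nr3c1, has the lower affinity and is occupied mainly at the daily peak and during stress, and the mineralocorticoid receptor, encoded by Nr3c2, has the higher affinity and is largely occupied at rest. The receptors wait in the cytoplasm in complexes with heat shock proteins and immunophilins, move to the nucleus on binding hormone, and act on DNA at inverted repeats of a short half-site. Prefrontal cortex is a target of this system, and its glucocorticoid receptors take part in feedback on the stress axis.

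The 300 bases around the annotated gene starts (250 before to 50 after) were taken from RefSeq, build GRCr8, for 8 of the 10 genes, in 13 windows because some genes have several starts. Nr3c2 and Zbtb16 had no entry. Windows of 4 genes are shown: Errfi1, whose HI and LI libraries did not overlap, and Ddit4, Tsc22d3 and Pdk4, whose levels varied together or in opposite directions between libraries. Capitals mark TATAAA, and the Tsc22d3 window is the one of its 3 that holds it.
Errfi1, chr5:166606591-166606890, plus strand: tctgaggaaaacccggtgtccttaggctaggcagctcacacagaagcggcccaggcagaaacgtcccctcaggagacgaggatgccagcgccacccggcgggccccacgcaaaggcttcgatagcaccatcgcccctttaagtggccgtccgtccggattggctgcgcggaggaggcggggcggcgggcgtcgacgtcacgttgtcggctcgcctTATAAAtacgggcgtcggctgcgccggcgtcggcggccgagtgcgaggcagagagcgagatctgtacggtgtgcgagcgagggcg
Ddit4, chr20:28436988-28437287, minus strand: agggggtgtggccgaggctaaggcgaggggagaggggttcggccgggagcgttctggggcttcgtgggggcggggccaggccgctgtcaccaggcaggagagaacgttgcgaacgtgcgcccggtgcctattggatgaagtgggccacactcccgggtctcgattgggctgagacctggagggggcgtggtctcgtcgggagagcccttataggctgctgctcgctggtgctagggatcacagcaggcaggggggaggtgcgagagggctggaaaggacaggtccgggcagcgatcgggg
Tsc22d3, chrX:109009985-109010284, minus strand: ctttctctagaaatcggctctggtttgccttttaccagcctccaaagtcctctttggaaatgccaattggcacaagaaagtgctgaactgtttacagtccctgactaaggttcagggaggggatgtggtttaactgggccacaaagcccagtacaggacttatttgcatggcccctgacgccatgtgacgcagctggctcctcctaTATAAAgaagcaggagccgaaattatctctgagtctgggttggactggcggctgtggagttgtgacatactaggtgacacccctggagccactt
Pdk4, chr4:34568280-34568579, minus strand: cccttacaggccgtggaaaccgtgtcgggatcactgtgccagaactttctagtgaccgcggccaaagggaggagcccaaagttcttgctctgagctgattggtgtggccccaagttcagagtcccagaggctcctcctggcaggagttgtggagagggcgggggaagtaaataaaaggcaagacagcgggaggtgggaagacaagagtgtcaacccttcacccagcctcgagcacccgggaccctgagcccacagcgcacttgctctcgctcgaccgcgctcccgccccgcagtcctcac
The receptor half-site, AGAACA or its reverse complement TGTTCT, occurred in 0 of the 13 windows, against 20.7% of all 33469 rat windows. The full inverted repeat, AGAACA followed after 3 bases by TGTTCT, occurred in 0 of 13, against 0.0149%. This says only that these letters are not in these windows. TATAAA or its reverse complement TTTATA was found in 4 of the 13 windows, those of Errfi1, Tsc22d3 and 2 of Sgk1, against 14.2% of all windows.

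Total counts ranged from 7354416 to 9476656 per library. Ribosomal RNA took between 0.406% and 25.5% of the counts. HI2, which had the lowest total count, held the 25.5%, and the next highest share was 6.42%, in LI2. HI4 and LI3, the libraries with the least ribosomal RNA (0.406% and 0.418%), stood apart from the other 6 on the first principal component. Levels below are CPM, counts scaled to a fixed library total after adjustment by the trimmed mean of M values (TMM), and levels compared between genes are TPM, which also allow for transcript length. In homogenate, fewer cells of a type and less RNA per cell cannot be told apart.

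Per transcript length, Klf9, a zinc finger transcription factor induced by glucocorticoid, was the most abundant of the 10, with a mean of 109 TPM over the 8 libraries and a range of 98.7 to 133 TPM. It exceeded Tsc22d3 in 8 of 8 libraries, and their ranges did not overlap. Tsc22d3, which encodes the glucocorticoid-induced leucine zipper protein, averaged 49.7 TPM. Ddit4 (46.3 TPM) and Zbtb16 (46.3 TPM) followed, and neighbours among these 3 genes were in that order in only 5 of 8 libraries. Nr3c1 (34.7 TPM), Sgk1 (33.8 TPM), Fkbp5 (30.6 TPM), Errfi1 (24.5 TPM) and Nr3c2 (22.8 TPM) came next, with overlapping ranges between each pair of neighbours. Pdk4 was the least abundant at 3.54 TPM, below Nr3c2 in 8 of 8 libraries.

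The receptor genes are described first. Nr3c1 stood at 113, 99.8, 115 and 126 CPM in HI1 to HI4, against 91.4, 97.4, 117 and 92.7 CPM in LI1 to LI4. All 4 HI libraries lay above the LI mean, HI2 by little, and LI3 lay inside the HI range. The log2 fold change (HI minus LI) was 0.19 ± 0.12 (SE, adjusted p = 1.00 by the quasi-likelihood test of edgeR). With 1 library left out in turn it ran from 0.13 (without HI4) to 0.27 (without LI3). With each library's slope on transcript length removed it was 0.09 ± 0.10 (SE, limma). With each library's ribosomal RNA percentage in the edgeR model it was 0.26 ± 0.11, and without HI4 and LI3 it was 0.22 ± 0.10 (SE). Nr3c2 stood at 68.7, 57.9, 53.1 and 71.2 CPM in HI1 to HI4, against 46.4, 69.0, 86.3 and 54.4 CPM in LI1 to LI4. Its HI libraries lay entirely within the range of its LI libraries, and the log2 fold change was -0.03 ± 0.19 (SE, edgeR adjusted p = 1.00).

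Within each library the TPM of Nr3c2 was below that of Nr3c1, so the mineralocorticoid receptor transcript was the scarcer in 8 of 8 libraries. The ratio of Nr3c2 to Nr3c1 TPM was 0.673, 0.639, 0.512 and 0.622 in HI1 to HI4, against 0.561, 0.782, 0.811 and 0.648 in LI1 to LI4. The HI libraries had a mean ratio of 0.612 ± 0.0699 and the LI libraries 0.700 ± 0.117 (SD over 4 libraries). The 2 highest ratios were in LI2 and LI3, but LI1 lay below 3 of the 4 HI libraries, and the ratio was given no test. The mean difference of -0.0888 lay between -0.135 (without LI1) and -0.0519 (without LI3) when libraries were left out in turn, and was -0.0555 without HI3 and -0.0554 without HI4 and LI3.

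Among the target genes, Zbtb16 and Errfi1 had the smallest p. Zbtb16 encodes a zinc finger transcription factor that is strongly induced by glucocorticoid in many cell types. It stood at 47.8, 65.3, 50.3 and 67.2 CPM in HI1 to HI4, against 50.2, 46.4, 34.1 and 39.1 CPM in LI1 to LI4. In 3 of 4 HI libraries it was above every LI library, HI3 by little (50.3 against 50.2 CPM), and HI1 lay below LI1. The log2 fold change was 0.44 ± 0.17 (SE, a fold of 1.36), with an exact two-sided permutation p of 0.0571 and an edgeR adjusted p of 1.00. It was 0.26 ± 0.15 without HI4 and LI3, and from 0.35 to 0.53 with 1 library left out in turn.

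Errfi1 encodes an inhibitor of the epidermal growth factor receptor that is induced both by glucocorticoid and by growth factors. It stood at 38.9, 38.0, 34.9 and 38.9 CPM in HI1 to HI4, against 30.6, 31.3, 34.2 and 30.4 CPM in LI1 to LI4. The 2 groups did not overlap, HI being higher, and the nearest libraries were HI3 and LI3. The log2 fold change was 0.25 ± 0.11 (SE, a fold of 1.19), with an exact two-sided permutation p of 0.0286, the smallest that 4 against 4 allows, and an edgeR adjusted p of 1.00. Errfi1 was also the steadiest of the 10, with a within-group SD of 0.0755 on the log2 CPM scale, lower than in all but 1.79% of tested genes.

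**Figure D1:**
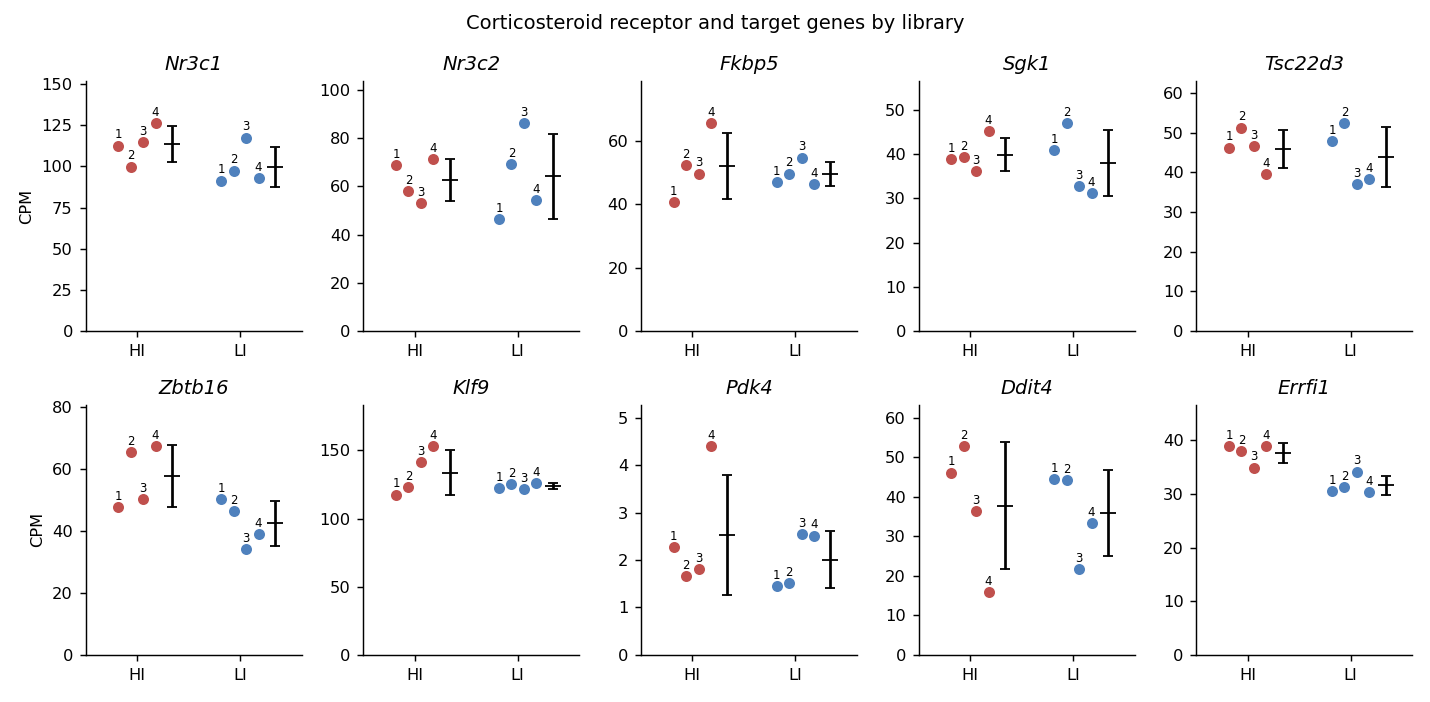
CPM (vertical axes, from 0) of the 10 genes in HI and LI libraries; each point is 1 library, numbered by replicate, and the bar gives the mean ± SD (n = 4 each). Errfi1 alone shows all HI points above all LI points, and Ddit4 and Pdk4 show HI4 far from the other HI points.

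The other classical targets differed little between the groups on average. Fkbp5 encodes an immunophilin that lowers the hormone affinity of the glucocorticoid receptor and is itself induced by it, forming a feedback loop. It stood at 40.6, 52.4, 49.7 and 65.8 CPM in HI1 to HI4, against 46.9, 49.7, 54.7 and 46.5 CPM in LI1 to LI4. HI held both the highest and the lowest library, HI4 and HI1, and the LI libraries lay between them. HI minus LI came to 0.07 ± 0.15 (SE) on the log2 scale, and to -0.06 without HI4.

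Sgk1, a kinase that regulates ion channels and transporters and responds to both receptors, stood at 38.8, 39.3, 36.2 and 45.1 CPM in HI1 to HI4. In LI1 to LI4 it stood at 40.8, 47.1, 32.8 and 31.1 CPM, so the LI libraries spanned the whole HI range. Its log2 fold change was 0.07 ± 0.15 (SE). Tsc22d3 stood at 46.2, 51.2, 46.6 and 39.5 CPM in HI1 to HI4, against 47.9, 52.5, 37.0 and 38.2 CPM in LI1 to LI4, again with the HI range inside the LI range. Its log2 fold change was 0.06 ± 0.15 (SE).

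Klf9 stood at 118, 123, 141 and 153 CPM in HI1 to HI4, against 122, 125, 122 and 126 CPM in LI1 to LI4. HI3 and HI4 lay above every LI library and HI1 below every one. Levels were 134 ± 16.3 CPM for HI libraries and 124 ± 2.25 CPM for LI libraries (mean ± SD of 4), and the difference in spread was not tested. HI minus LI came to 0.11 ± 0.11 (SE) on the log2 scale, and to 0.04 without HI4.

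The metabolic targets Ddit4 and Pdk4 varied most. Ddit4, an inhibitor of the mTOR complex that also responds to hypoxia and energy stress, stood at 46.1, 52.7, 36.3 and 15.8 CPM in HI1 to HI4. In LI1 to LI4 it stood at 44.5, 44.3, 21.7 and 33.3 CPM. HI4 was lowest and LI3 next lowest, and these are the libraries with the least ribosomal RNA; the part of library quality in this was not tested. The within-group SD of 0.64 on the log2 CPM scale was larger than that of 93.9% of tested genes. HI minus LI came to 0.07 ± 0.34 (SE) on the log2 scale, 0.32 without HI4 and -0.11 without LI3.

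Pdk4, a kinase that restrains pyruvate dehydrogenase, stood at 2.27, 1.65, 1.81 and 4.39 CPM in HI1 to HI4, against 1.46, 1.51, 2.55 and 2.51 CPM in LI1 to LI4. These levels rest on between 10 and 33 counts per library, so counting error alone is wide. HI4 was the highest. The log2 fold change of 0.33 ± 0.38 (SE) was -0.06 without that library.

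As a set, 0 of the 10 genes reached the threshold, an adjusted p of 0.1 by edgeR's quasi-likelihood method, and 0 of all 11631 genes did (0%). At an unadjusted p under 0.05 there were 2 of 10, Zbtb16 and Errfi1, both higher in HI, against 4.16% of all tested genes in either direction and 3.07% in that direction. HI and LI libraries did not overlap in 1 of 10, Errfi1, against 3.46% of all tested genes in either direction and 2.31% with HI above LI. As the 10 genes were chosen with earlier results of these data known, these shares are a description and no independent test. DESeq2, edgeR's exact test, limma-voom and limma on log2 TPM each called 0 of the 10, DESeq2 giving no adjusted p for Pdk4, while they called 38 (0.488%), 1 (0.0086%), 0 and 0 genes in all. The 0.488% is of the 7794 genes to which DESeq2 gave an adjusted p. The smallest DESeq2 adjusted p among the 10 was 0.665, for Zbtb16.

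The fold changes were positive in 9 of the 10, all but Nr3c2, against 48.5% of all tested genes, and their median was 0.09 against -0.01 over all tested genes. The count of positive values was 7 of 10 without HI4 and 7 of 10 without LI4, and 10 of 10 without HI3 or without LI2. It was 6 of 10 within replicates 1 and 2. The median was 0.17 without HI1, 0.18 without LI2 and 0.14 without LI3. Fisher's exact test on counts summed within each group, the test named in the series' design text, called Nr3c1, Zbtb16 and Errfi1 higher and Nr3c2 lower in HI. That test takes no account of the spread between libraries and called 56.8% of all tested genes, so 4 of 10 is near its background. It used no TMM scaling, its median over all tested genes was -0.11, and on that scale only 5 of the 10 were positive.

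**Figure D2:**
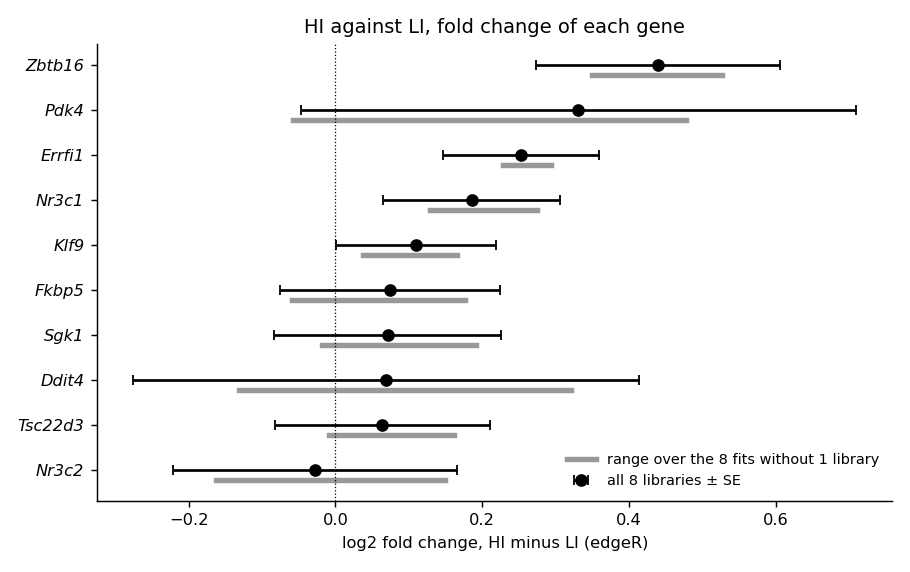
Log2 fold change, HI minus LI, of each gene (points, edgeR, ± SE), with the range over the 8 fits that each leave out 1 library as a grey bar. Zbtb16, Errfi1, Nr3c1 and Klf9 stay above 0 in every such fit, and the other 6 bars cross 0.

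RNA of markers of other cell types and neighbouring tissue also varied between the libraries, and its part in the values of Zbtb16 and Errfi1 was not tested. Of all 11631 tested genes, 5638 were higher and 5993 lower in HI. Oligodendrocyte markers had lower values in HI in 6 of 6 (summed 1943 to 2121 CPM in HI and 1665 to 6348 CPM in LI), and striatal markers in 5 of 5 (158 to 224 CPM in HI and 193 to 605 CPM in LI), with LI2 highest in both. Microglial markers were lower in 5 of 5, and their sums did not overlap (189.5 to 224 CPM over HI libraries, 236 to 246 CPM over LI libraries). Singly, 1 of the 5, Aif1, had no overlap, against 3.46% of all tested genes in either direction. Interneuron markers were lower in 5 of 5 (564 to 649.6 CPM over HI libraries, 626 to 851 CPM over LI libraries). Meningeal markers were higher in 4 of 4 tested. Summed with Lum, which did not reach the filter, they came to 69.1 to 858 CPM over HI libraries and 29.7 to 196 CPM over LI libraries, with HI1 highest. The 6 astrocyte markers, 3 higher and 3 lower, summed to between 2737 and 3416 CPM over HI libraries and between 2878 and 3339.7 CPM over LI libraries. Of these 6, only Slc1a2 had an unadjusted p under 0.05 by edgeR's quasi-likelihood test, against 4.16% of all tested genes. Its log2 fold change was 0.54 ± 0.17 (SE), and HI3 (291.2 CPM) lay just below LI4 (291.7 CPM). Endothelial markers (4 of 6 higher, 104 to 172 CPM over HI libraries, 100.4 to 144 CPM over LI libraries) and oligodendrocyte precursor markers (2 of 3 higher, 145 to 259 CPM over HI libraries, 173 to 262 CPM over LI libraries) overlapped. So did mural (3 of 3 higher, 40.5 to 68.9 CPM over HI libraries, 33.8 to 50.3 CPM over LI libraries) and blood markers (3 of 3 higher, 138 to 459 CPM over HI libraries, 143 to 260.0 CPM over LI libraries). No marker was at 0 in all libraries, and markers of cortical excitatory neurons (4738 to 6945 CPM in HI and 4663 to 6528 CPM in LI) were abundant in every library. Without LI2 the log2 fold change was 0.49 for Zbtb16 and 0.25 for Errfi1, and without HI1 it was 0.52 and 0.24. Without HI4 and LI3 it was 0.26 for Zbtb16 and 0.28 for Errfi1.

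The genes did not vary as 1 block across libraries. Over the 8 libraries, 32 of the 45 pairs had a positive Pearson r of log2 CPM, with a median of 0.28. None of the 45 passed an adjusted p of 0.1 by an exact permutation test of r (smallest adjusted p = 0.213), and 6 had an unadjusted p under 0.05. Fkbp5 and Tsc22d3, both textbook reporters of receptor activity, had an r of -0.34 and a rho of -0.07 (exact permutation p = 0.426 and 0.882, adjusted p = 0.685 and 0.945 over the 45 pairs), and 0.40 without HI4 and LI3. Nr3c1 and Nr3c2 had an r of 0.64 and a rho of 0.67 (exact permutation p = 0.0861 and 0.0831, adjusted p = 0.352 and 0.517), and r = 0.46 without HI4 and LI1, the libraries farthest from the Nr3c1 median, and 0.38 without HI4 and LI3.

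The strongest relations joined Ddit4, Pdk4 and Tsc22d3. Tsc22d3 varied in the same direction as Ddit4 (r = 0.80, rho = 0.69, exact permutation p = 0.0148 and 0.0694, adjusted p = 0.291 and 0.517), and r was 0.90 without LI3 and LI4, the libraries farthest from the Tsc22d3 median, and 0.79 without HI4 and LI3. Tsc22d3 ran against Pdk4 (r = -0.77, rho = -0.86, exact permutation p = 0.0211 and 0.0107, adjusted p = 0.291 and 0.482), with r = -0.92 without LI3 and LI4 and -0.83 without HI4 and LI3. Pdk4 ran against Ddit4 (r = -0.87, rho = -0.74, exact permutation p = 0.00474 and 0.0458, adjusted p = 0.213 and 0.517), with r = -0.68 without HI4 and LI1 and -0.52 without HI4 and LI3. Fkbp5 against Ddit4 (r = -0.76) rested on HI4 and LI3, without which r was 0.11. Each gene was also centred on its group mean and permuted within groups. By this exact permutation test 4 of the 45 pairs passed an adjusted p of 0.1, at 0.0977 each. They were Tsc22d3 with Ddit4, Tsc22d3 with Pdk4, Nr3c1 with Ddit4 (centred r = -0.84) and Nr3c2 with Errfi1 (centred r = 0.85). Pdk4 with Ddit4 did not pass (adjusted p = 0.141 by the same test). Uncentred, r was -0.69 for Nr3c1 with Ddit4 and 0.39 for Nr3c2 with Errfi1. Without HI4 and LI3 these values were 0.019 and 0.42.

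**Figure D3:**
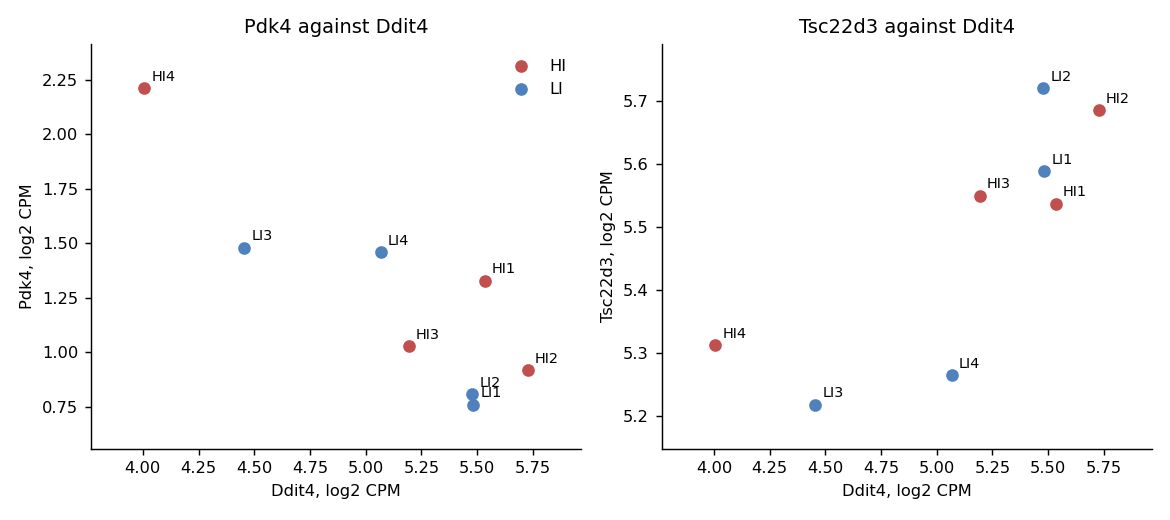
Log2 CPM of Pdk4 (left) and of Tsc22d3 (right) against log2 CPM of Ddit4, 1 labelled point per library, HI and LI in different colours. HI4 and LI3 lie at the low end of Ddit4, Pdk4 falls along the axis and Tsc22d3 rises along it in both groups.

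By pattern over the 8 libraries, the genes most like Nr3c1 among 11620 others were Megf9 (Pearson r = 0.97), Xpo7 (0.96) and Phf20 (0.96). Those most like Nr3c2 were Wdr89 (0.93), Spg20 (0.93) and Gramd1c (0.92), and those most like Fkbp5 were Dock9 (0.97), RGD1564937 (0.96) and Gpatch4 (0.96). These are the highest of many values and are given as a description. They share the depth and ribosomal RNA content of the libraries.

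Other genes of the pathway were read from the same test by list. Of 23 further glucocorticoid targets tested, 13 were higher and 10 lower in HI libraries. Their median difference was 0.04 on the log2 scale, and 0 were called. The median was -0.03 without HI1, with 9 higher and 14 lower, 0.15 without HI3, 0.16 without HI4, with 16 higher, and 0.21 without LI4. It was also 0.06 without HI2, 0.13 without LI2 and 0.12 without LI3. Irs2, an insulin receptor adaptor, averaged 162 ± 15.8 CPM over HI libraries and 127 ± 14.2 CPM over LI libraries (SD of 4). HI minus LI was 0.36 ± 0.12 (SE), with HI1 just below LI4 (exact permutation p = 0.0571). Hif3a, a hypoxia-inducible factor subunit at 2.16 ± 1.02 CPM over HI libraries and 0.895 ± 0.618 CPM over LI libraries, differed by 1.18 ± 0.55 (SE). Its levels rest on between 2 and 20 counts per library, so counting error is wide. HI1 (0.83 CPM) lay below LI1 (1.25 CPM) and LI4 (1.57 CPM). Nedd9, a scaffold of focal adhesions, differed by 0.42 ± 0.20 (SE). Per1 and Dusp1, which also respond to the clock and to neuronal activity, differed by 0.41 ± 0.21 and 0.58 ± 0.29 (SE). Some of the 10 lower genes were named after their values were seen, and they do not stand for the whole list. They were the arrestin-domain gene Arrdc2 (-0.39 ± 0.19), the metallothioneins Mt1a (-0.20 ± 0.23) and Mt2A (-0.22 ± 0.20) and the inhibitor of NF-kappaB Nfkbia (-0.10 ± 0.19) (± SE). None passed the test.

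The chaperones that hold the receptors ready for hormone had log2 fold changes on both sides of 0. Their SE ran from 0.09 (Fkbp4) to 0.25 (Ppid), so equal levels are not shown for each gene. Of 13, 7 were higher and 6 lower in HI, with a median of 0.0041 and a range from -0.09 for Bag1 to 0.10 for Hspa4. With upper-quartile scaling 6 were higher and 7 lower, with a median of -0.01, and with 1 library left out the median ran from -0.04 (without HI4) to 0.08 (without LI3). Hsp90ab1, the constitutive cytosolic form of the central chaperone, averaged 1793 ± 168 CPM over HI libraries and 1711 ± 138 CPM over LI libraries (SD of 4). Fkbp4, the immunophilin that opposes Fkbp5 at the receptor, averaged 165 ± 8.20 CPM over HI libraries and 167 ± 5.69 CPM over LI libraries.

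Coregulators that nuclear receptors recruit had higher values in HI in 9 of 9, against 48.5% of all tested genes. Their median was 0.24, and 0 were called. Ncoa2, a coactivator of the glucocorticoid receptor, stood at 85.8, 84.3, 80.3 and 107 CPM in HI1 to HI4, against 55.2, 74.2, 75.5 and 79.0 CPM in LI1 to LI4. The HI libraries did not overlap the LI libraries (log2 fold change 0.33 ± 0.14 SE, exact permutation p = 0.0286, edgeR adjusted p = 1.00). Ncoa2 was the only 1 of the 9 without overlap, against 3.46% of all tested genes in either direction and 2.31% with HI above LI. In each of the other further lists described here the count without overlap was 0. Ncoa1, another coactivator, differed by 0.24 ± 0.14 and the corepressor Ncor1 by 0.29 ± 0.19 (SE). The median was 0.07 without HI4, with 8 of 9 positive, and 0.13 with each library's slope on transcript length removed, with 6 of 9 positive. HI4 had the highest slope on transcript length (0.13 log2 units per doubling) and also the least ribosomal RNA. The part of either in the coregulator values was not tested.

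Of 4 tested genes of steroid metabolism and transport, 2 were higher and 2 lower in HI. Hsd11b1, which regenerates active glucocorticoid in cells, averaged 25.6 ± 4.94 CPM over HI libraries and 31.3 ± 6.27 CPM over LI libraries (SD of 4), with a difference of -0.29 ± 0.19 (SE). Srd5a1, a steroid reductase, differed by -0.28 ± 0.15 and H6pd, which supplies the cofactor of Hsd11b1, by 0.38 ± 0.27 (SE). Hsd11b2, which inactivates glucocorticoid, did not reach the filter, and Serpina6, the plasma carrier made by liver, had a count of 0 in every library. Of 3 tested genes of corticotropin-releasing hormone signalling, Crh differed by -0.21 ± 0.39, Crhr1 by 0.21 ± 0.25 and Crhbp by 0.08 ± 0.17 (SE). Crh stood at 9.53 CPM in LI4 and at 3.15 to 3.64 CPM in the other LI libraries, and without LI4 all 3 genes were positive, with a median of 0.29. Across these 5 lists edgeR's quasi-likelihood test called 0 genes, as did DESeq2, edgeR's exact test, limma-voom and limma on log2 TPM. DESeq2 gave an adjusted p to only 12 of the 23 further targets, 3 of the 4 steroid genes and 1 of the 3 corticotropin-releasing hormone genes. All 13 chaperones and 9 coregulators had an adjusted p from it. At an unadjusted p under 0.05 by edgeR's quasi-likelihood test there were Irs2, 1 of 23 further targets, and Ncoa2, 1 of 9 coregulators. There were 0 of 13 chaperones, 0 of 4 steroid genes and 0 of 3 corticotropin-releasing hormone genes, against 4.16% of all tested genes.

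**Figure D4:**
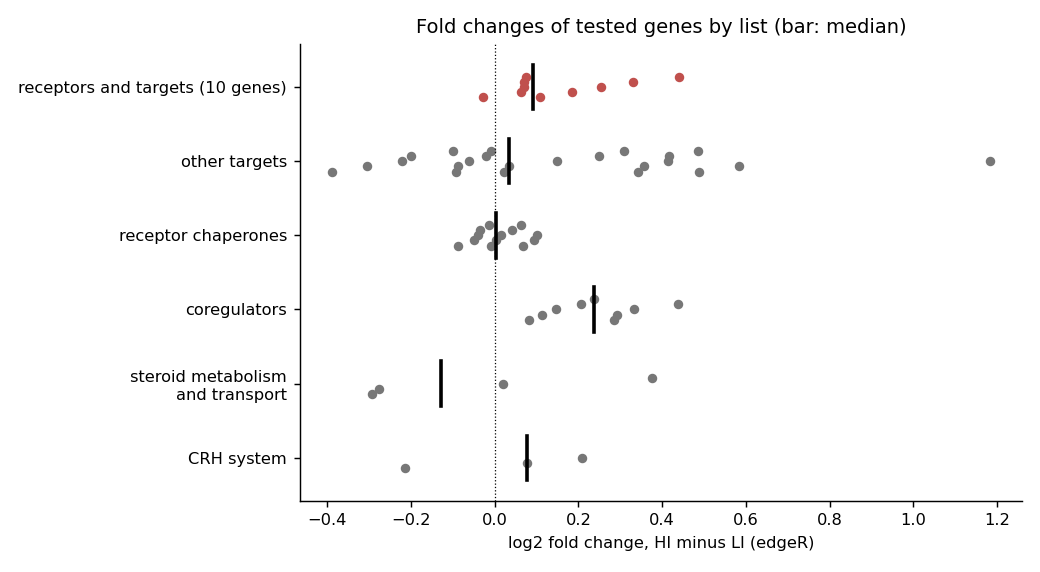
Log2 fold change, HI minus LI, of each tested gene (points) in the 10 receptor and target genes and in 5 further pathway lists, with the median of each list as a bar. Chaperones cluster around 0, coregulators lie above it, and the further targets spread to both sides.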

How the data were processed

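Medial prefrontal cortex RNA was sequenced from 4 HI and 4 LI libraries, grouped by their titles. Per the file headers, the deposited tables give an expected count, a TPM, an FPKM and a transcript length per gene. The TPM scaling is the authors', and the deposited FPKM served only as a check of the receptor ratio. The submitters' processing notes list Bowtie2 2.1.0. No source used here gives the quantifier, genome build, annotation or use of strand, so overlapping genes may share reads.

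Expected counts were rounded. Genes passed filterByExpr (minimum count 10, total 15), and libraries were scaled by TMM in edgeR 4.0.16 under R 4.3.3. HI was compared with LI by the quasi-likelihood test on 11631 genes, with Benjamini-Hochberg adjustment over all of them and a threshold of 0.1, the alpha of the design text. SE is the absolute log2 fold change over the square root of F. DESeq2 1.42.0 and limma 3.58.1 were alternatives. Log2 CPM used a prior count of 2. The fit was tested on simulated data. Libraries of a group differed by more than sampling noise, so none were merged.

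The genes, the further lists and the tests were chosen with earlier results of these data known. Named were the 10 genes, the 3 closest in pattern to Nr3c1, Nr3c2 and Fkbp5, and the 3 of smallest p per further list with Per1 and Dusp1. Arrdc2, Mt1a, Mt2A, Nfkbia and Fkbp4 were named after their values were seen. Of the listed genes, Mt1, Tiparp, Ncoa3 and Ep300 were not matched by symbol and are not analysed here. A further list, of other steroid receptors, is not reported here.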

Additional observations from a re-analysis of the deposited data

How the results depend on the processing

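Zbtb16, Errfi1 and Nr3c1 had positive log2 fold changes in all 25 alternatives run for each, from 0.21 to 0.67, from 0.15 to 0.31 and from 0.09 to 0.27. Those of the other 7 genes turned sign in at least 1, and the cause was not tested. With libraries left out in turn, values ran from -0.16 to 0.15 for Nr3c2, from -0.13 to 0.32 for Ddit4, from -0.0084 to 0.16 for Tsc22d3, from -0.059 to 0.18 for Fkbp5, from -0.018 to 0.19 for Sgk1 and from -0.058 to 0.48 for Pdk4. With each library's ribosomal RNA percentage in the model, the log2 fold change was 0.032 for Nr3c2, -0.023 for Tsc22d3 and -0.23 for Ddit4, and with its log2, chosen after seeing the data, 0.050, -0.0069 and -0.25. Without HI4 and LI3, also chosen after seeing the data, it was 0.083 for Nr3c2, -0.0069 for Fkbp5 and -0.057 for Sgk1. By limma-voom it was 0.0060 for Nr3c2 and -0.013 for Ddit4, by limma on log2(TPM + 1) -0.0086 for Ddit4, and by Fisher's exact test on summed counts -0.045 for Fkbp5, -0.034 for Sgk1, -0.042 for Tsc22d3 and -0.052 for Ddit4. Within replicates 1 and 2 it was 0.15 for Nr3c2, -0.066 for Fkbp5, -0.17 for Sgk1, -0.043 for Tsc22d3 and -0.042 for Klf9, and within replicates 3 and 4 -0.16 for Ddit4.

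The count of genes called was 38 by DESeq2, 1 by edgeR's exact test, 6602 by Fisher's exact test and 440 by edgeR with the log2 ribosomal RNA share, against 0 in the main test, and that of the 10 genes was 4 by Fisher's exact test and 0 in the other alternatives. The number of the 10 genes whose HI and LI libraries did not overlap was 1 to 2 with a library left out (4.98% to 6.75% of all tested genes), 2 without HI4 and LI3 (10%), 2 in TPM (2.62%), 5 within replicates 1 and 2 (34.5%) and 5 within replicates 3 and 4 (26.4%). No overlap count was possible under the ribosomal RNA covariate, which leaves CPM as it is. The count of co-varying pairs past the threshold was 4 with values centred within groups. The deviations of same-numbered HI and LI libraries correlated in only some pairs (r = 0.22, 0.54, -0.05 and 0.06 for numbers 1 to 4), so the numbers were not taken to pair the samples, and HI4 correlated best with LI3. With the replicate number as a block, edgeR called 0 genes, and the log2 fold change of Nr3c2 was 0.00094. Pdk4, with 10 to 33 counts per library, is limited by depth.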
